A study of Mus musculus with 65 samples.

Results

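The binding sites of MEI4 were compared between spermatocytes that have IHO1 and spermatocytes that lack it. The wild-type list held 1566 MEI4 peaks and the Iho1KO list held 2679. A peak counted as present in both genotypes where intervals of the 2 lists overlapped by at least 1 bp. This gave 3003 sites in 3 classes: 1240 shared sites, 326 sites of the wild type only and 1437 sites of Iho1KO only. Together the 24 peak lists of the series held 97260 peaks. Shared sites are counted as wild-type peaks, and 1242 Iho1KO peaks matched them.

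The series mapped proteins of meiotic recombination by chromatin immunoprecipitation and sequencing in mouse testis, with 65 samples in 36 groups. All mice are labelled C57BL/6JCrl. The genotypes used here are wild type, Iho1tm1.2Atot (Iho1KO), Spo11tm1Mjn (Spo11KO), Hormad1tm1.2Atot (Hormad1KO) and B6;129P2-Prdm9tm1Ymat/J (Prdm9KO). Every group, controls included, had its spermatogenesis synchronised: pups of 1.5 days were fed the retinoic acid inhibitor WIN 18,466 for 7 to 10 days and then injected once with retinoic acid. Whole testes, collected 8 days later, consisted of leptotene and zygotene spermatocytes to 80 to 95%. Each group used here has 2 samples, except SYCP3 in Iho1KO and in Spo11KO with 1 each, but only 1 peak list per group. No difference between genotypes therefore has a replicate check. All intervals below are 95% intervals that cover counting error only, and they treat peaks as independent although neighbouring peaks may not be. Sequencing depth is unknown. IHO1 in Iho1KO was not analysed here, so the lists do not test the knockout label itself.

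MEI4 acts with REC114 and IHO1 in the complex that allows SPO11 to cut DNA at the start of meiotic recombination. IHO1 binds HORMAD1, a protein of the chromosome axis, while SYCP3 is a structural component of that axis. The sites of cutting, called hotspots, lie in loops of chromatin and are chosen by the DNA-binding methyltransferase PRDM9. DMC1, the meiotic recombinase, coats the single-stranded DNA at cut sites, so its map marks where breaks are made.

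The sequences below give 1 example of a hotspot centre from each class, and were not chosen to be typical of their classes. They come from RefSeq (GRCm38.p6), and each is the stretch of 250 bases upstream of a gene start that contains the centre of a wild-type DMC1 hotspot, written 5′ to 3′ on the strand of the gene, here the minus strand. Capitals mark the 41 bases around the hotspot centre. Where the centre had to lie at least 25 bases from the window's edge, 2 such windows held the centre of a hotspot with MEI4 in both genotypes, 1 held a hotspot with MEI4 in the wild type only and 4 held a hotspot with MEI4 in Iho1KO only. Printed for each class is the hotspot with the highest DMC1 value, or the sole one.
5730405A17Rik: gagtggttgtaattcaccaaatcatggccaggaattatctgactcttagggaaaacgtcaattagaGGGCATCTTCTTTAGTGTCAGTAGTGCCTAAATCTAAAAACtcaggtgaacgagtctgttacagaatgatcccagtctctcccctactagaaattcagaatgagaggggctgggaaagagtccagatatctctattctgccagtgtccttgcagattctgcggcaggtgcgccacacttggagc
Clcn4: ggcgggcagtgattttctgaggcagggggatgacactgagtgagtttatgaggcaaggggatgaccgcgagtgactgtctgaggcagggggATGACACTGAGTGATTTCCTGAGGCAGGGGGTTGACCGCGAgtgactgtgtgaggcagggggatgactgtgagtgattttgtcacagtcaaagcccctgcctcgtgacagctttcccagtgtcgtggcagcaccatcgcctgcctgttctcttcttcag
Gm31493: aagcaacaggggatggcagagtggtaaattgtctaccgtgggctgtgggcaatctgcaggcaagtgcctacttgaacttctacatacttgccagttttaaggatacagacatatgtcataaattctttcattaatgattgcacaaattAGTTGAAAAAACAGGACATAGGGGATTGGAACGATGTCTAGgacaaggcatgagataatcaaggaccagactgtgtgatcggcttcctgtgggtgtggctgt

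The window upstream of 5730405A17Rik (chr8:61428129-61428378) belongs to a hotspot with MEI4 in both genotypes and a deposited DMC1 value of 3513. That hotspot carried HORMAD1 and SYCP3 peaks in the wild type and neither in Iho1KO. The window of Clcn4 (chr7:7298837-7299086), which encodes a chloride/proton exchanger, belongs to a hotspot with MEI4 in the wild type only. Its DMC1 value of 82 is far below the class median of 980. It lay 7.30 Mb from the chromosome end, and it overlapped a CTCF peak but no axis peak. The window of Gm31493 (chr1:160025764-160026013) belongs to a hotspot with MEI4 in Iho1KO only, with a DMC1 value of 1363.5. There, SYCP3 had a peak in the wild type and not in Iho1KO. GC content of the 3 windows was 46.0%, 57.2% and 44.0% in that order.

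Most wild-type MEI4 sites kept a MEI4 peak without IHO1. Of the wild-type peaks, 79.2% were found in Iho1KO (Wilson interval 77.1 to 81.1). In the other direction, 46.4% of Iho1KO peaks were found in the wild type (44.5 to 48.3). For scale, 11% of all 13808 wild-type DMC1 hotspots overlapped a wild-type MEI4 peak and 18.9% an Iho1KO MEI4 peak. The Iho1KO list is the longer one, and with only its widest 1566 peaks both shares became 56.7%. The deposited values do not tell whether the longer list reflects more binding or a different depth or threshold.

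Loss was larger in Iho1KO than in Spo11KO or Hormad1KO when whole lists were used, but neither difference was called at equal list length. The cause of this change was not tested. Of the same 1566 wild-type peaks, 1427 were found in Spo11KO, which lacks the nuclease subunit that cuts DNA, and 1428 in Hormad1KO. The share found was lower in Iho1KO by 11.9 percentage points than in Spo11KO (difference -11.9, paired Newcombe interval -14.1 to -9.83) and by 12.0 than in Hormad1KO (-12.0, -14.0 to -10.1). The Spo11KO list held 3817 peaks and the Hormad1KO list 3828, and they covered 27.3% and 26.9% of all hotspots. With these lists shortened to their widest 2679 peaks, the differences were -2.17 (-4.43 to 0.0911) and 0.383 (-1.63 to 2.40), and neither interval excluded 0. The 3 comparisons use the same wild-type list.

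The classes differed in the strength of their hotspots. The deposited DMC1 value, the authors' own signal per hotspot in a unit they did not name, had a median of 1740 at shared sites (order-statistic interval 1606 to 1811). It was 980 at wild-type-only sites (895 to 1061) and 545 at Iho1KO-only sites (516 to 584). The middle 50% of values ran from 1010 to 2975 at shared sites, from 662 to 1540 at wild-type-only sites and from 264 to 1116 at Iho1KO-only sites, so the classes overlap widely. Of the shared sites at hotspots, 95.4% lay in the strongest 25% of hotspots, which was 7.40 points more than the wild-type-only sites (3.87 to 11.8) and 36.8 points more than the Iho1KO-only sites (34.0 to 39.7).

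Nearly all sites of every class were hotspots. The share was 98.9% for shared sites (1226 of 1240), 96.5% for Iho1KO-only sites (1386 of 1437) and 87.1% for wild-type-only sites (284 of 326). The last was 11.8 points below the shared sites (-11.8, -15.9 to -8.46). Peaks were wider at shared sites, with a median of 2056 bp, than at wild-type-only sites (1623 bp) or Iho1KO-only sites (1640 bp). Strength and width were not separated from each other.

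Seen from the hotspots, the MEI4 list of Iho1KO, which is the longer one, reached down to weaker ones. Shares by strength class were not recomputed at equal list length, so the part of list length in them was not tested. In the strongest 10% of hotspots, 57.9% had MEI4 in both genotypes, 6.95% in the wild type only, 22.1% in Iho1KO only and 13.0% in neither. In the next 10% these shares were 22.9%, 9.05%, 24.9% and 43.2%. Of the hotspots with DMC1 values from 196 to 323.5, 2.03% had a wild-type MEI4 peak and 16.6% an Iho1KO peak, and Spo11KO and Hormad1KO each had 26.9%. Among the 100 hotspots with the highest DMC1 value, 64 had MEI4 in both genotypes, 3 in the wild type only, 22 in Iho1KO only and 11 in neither.

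**Figure D1:**
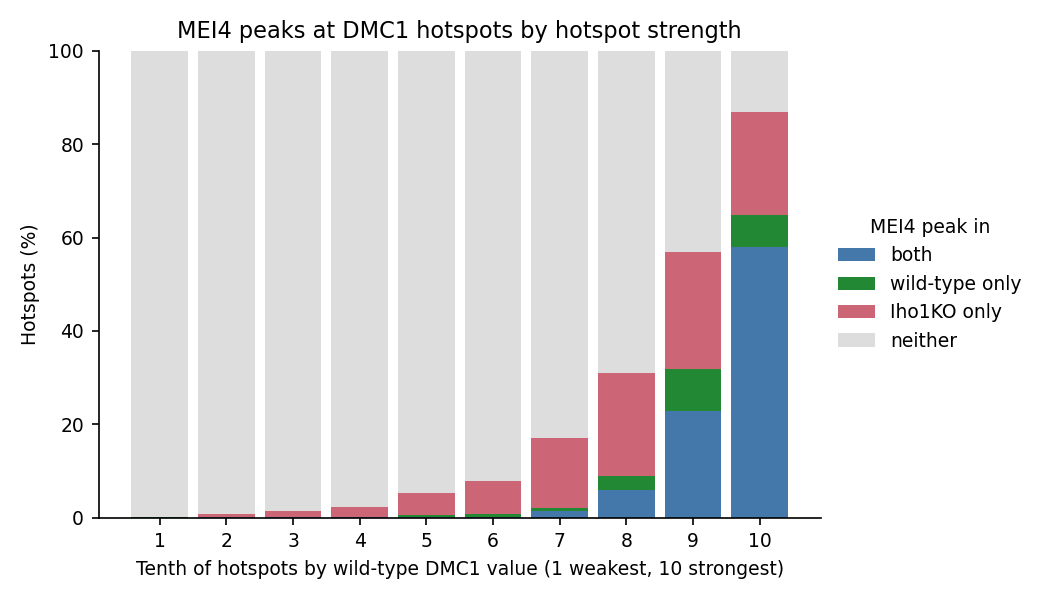
Share of wild-type DMC1 hotspots in each of 10 equal classes by DMC1 value (x axis, weakest to strongest) that overlapped a MEI4 peak in both genotypes, in the wild type only, in Iho1KO only or in neither (stacked bars, % of hotspots). MEI4 in both genotypes is most frequent in the strongest class (57.9%), where Iho1KO-only hotspots make up 22.1%, beside 24.9% in the class below it.

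Individual sites show the range. At the hotspot inside Ankfn1 on chromosome 11 (mm10, 89610453 to 89613094, DMC1 value 20822.5) the wild-type MEI4 peak was 7005 bp wide, MEI4 was also present in Iho1KO, and HORMAD1 and SYCP3 had peaks in both genotypes. The hotspot inside Erbb4 (chromosome 1, 68487799 to 68490366, value 18961), which encodes a neuregulin receptor, was shared too, but its HORMAD1 and SYCP3 peaks were in the wild-type lists only. A further shared hotspot lay 66.3 kb from Erbb4 (67961107 to 67963650, value 18266.5), with both axis proteins in both genotypes.

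The strongest hotspots with MEI4 in the wild type only lay far from chromosome ends. The hotspot inside Dennd1a (chromosome 2, 38136483 to 38138890, value 20513.5), a gene for a Rab exchange factor, had a wild-type MEI4 peak of 5865 bp and none in Iho1KO or Hormad1KO, although Spo11KO had one. HORMAD1 and SYCP3 peaks were present there in both the wild type and Iho1KO. A hotspot inside Fat4 (chromosome 3, 38903900 to 38906303, value 11350), which encodes an atypical cadherin, kept MEI4 in Spo11KO and Hormad1KO but not in Iho1KO. The third lay 1122 kb from Zpld1 (chromosome 16, value 7152) and followed the same pattern.

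Iho1KO-only sites also included strong hotspots. One lay 1.38 kb from Nedd1, whose product recruits gamma-tubulin (chromosome 10, 92679601 to 92682158, value 18957.5). Another lay 154 kb from the sialyltransferase gene St6gal2 (chromosome 17, value 13846). The last was inside Stag2, a cohesin subunit gene on the X chromosome (42214961 to 42217155, value 11624.5). All 3 carried HORMAD1, SYCP3 and IHO1 peaks in the wild type, so the axis and IHO1 were called there while MEI4 was not. Absence from a list means only that no peak was called.

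Axis proteins were called at far fewer MEI4 sites when IHO1 was absent. Of the wild-type MEI4 peaks, 28.9% overlapped a wild-type HORMAD1 peak and 45.8% a wild-type SYCP3 peak. Of the Iho1KO MEI4 peaks, 3.92% overlapped an Iho1KO HORMAD1 peak and 5.49% an Iho1KO SYCP3 peak. These are differences of -25.0 points for HORMAD1 (Newcombe interval -27.4 to -22.7) and -40.4 points for SYCP3 (-43.0 to -37.7). Over all hotspots, HORMAD1 peaks covered 4.70% in the wild type and 1.39% in Iho1KO, and SYCP3 peaks 7.47% and 6.37%. The axis lists themselves were not shorter in Iho1KO: HORMAD1 had 1715 peaks in the wild type and 3149 in Iho1KO, and SYCP3 had 1911 and 5380. Their peaks were narrower in Iho1KO, with median widths of 2641 and 1599 bp for HORMAD1 and 2791 and 1196 bp for SYCP3. With 1 kb windows at all peak centres the differences were smaller, at -19.0 points for HORMAD1 (-21.3 to -16.9) and -32.1 for SYCP3 (-34.7 to -29.6).

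The same loss held at sites where MEI4 stayed. At the 1240 shared sites, 393 had a HORMAD1 peak in the wild type and 73 in Iho1KO (difference -25.8 points, paired Newcombe interval -28.5 to -23.1), and 44 sites had one in both. For SYCP3 the counts were 629 and 97, counted on each genotype's own MEI4 interval (-42.9 points, -45.8 to -39.9). In the strongest 10% of hotspots, shared sites went from 46.7% to 6.26% for HORMAD1 and from 70.1% to 8.89% for SYCP3. In the next 10% HORMAD1 was rare in both genotypes (2.85% and 3.48%, difference 0.633, -2.25 to 3.57). There the SYCP3 difference was -13.0 points (-17.8 to -8.33).

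**Figure D2:**
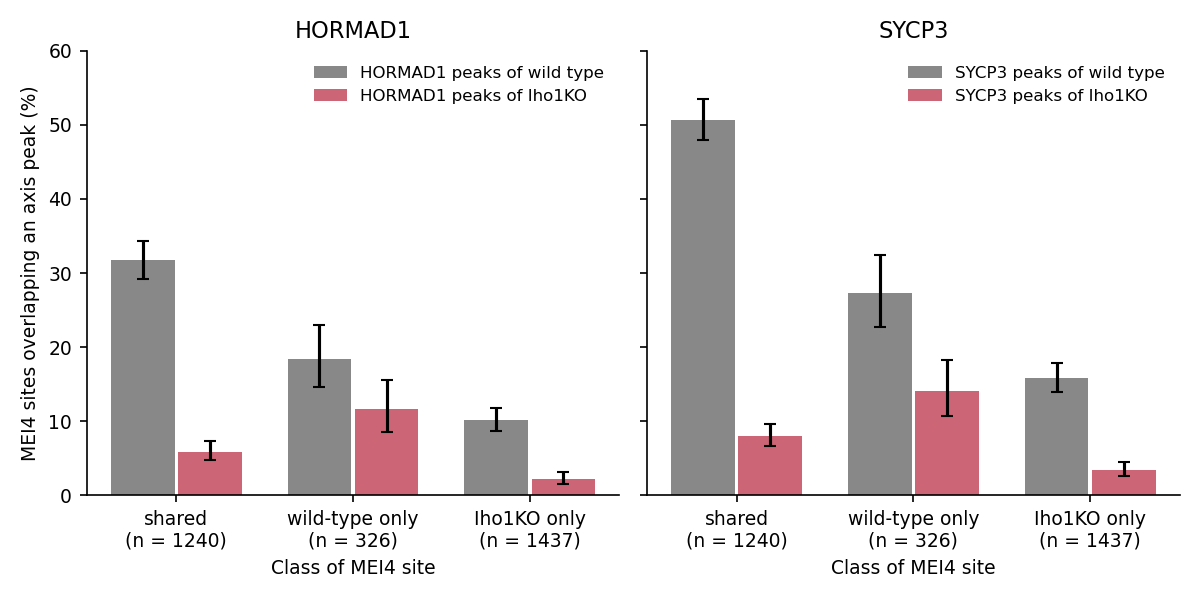
Share of MEI4 sites (y axis, %) of each class that overlapped a HORMAD1 peak (left) or a SYCP3 peak (right) of the wild type (grey) or of Iho1KO (red), with Wilson 95% intervals. At shared sites the SYCP3 share was 50.7% in the wild type and 7.98% in Iho1KO, here counted on the wild-type MEI4 interval.

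Few of the sites with MEI4 in Iho1KO only had an axis peak in that genotype. Of the 1437 Iho1KO-only sites, 32 (2.23%) overlapped an Iho1KO HORMAD1 peak, 50 (3.48%) an Iho1KO SYCP3 peak and 18 both. For the 1386 sites at hotspots the shares were 1.88% for HORMAD1 (1.28 to 2.73) and 3.17% for SYCP3 (2.37 to 4.23). Over all hotspots they were 1.39% and 6.37%. The HORMAD1 share was thus near that of all hotspots, and the SYCP3 share was below it. In the wild type, which had no MEI4 peak at the 1437 sites, 10.2% of them overlapped a HORMAD1 peak and 15.8% a SYCP3 peak. Wild-type peaks of these proteins covered 4.70% and 7.47% of all hotspots. The difference at these sites, Iho1KO minus wild type, was -7.93 points for HORMAD1 (-9.58 to -6.40) and -12.3 points for SYCP3 (-14.3 to -10.4). The 2 strongest Iho1KO-only hotspots with both axis proteins in Iho1KO were 186 kb from the transcription factor gene Pax1 (value 9769) and inside Plekha5 (value 9462.5).

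Where CTCF, an architectural DNA-binding protein, had a wild-type peak (8.49% of hotspots), the HORMAD1 change at shared sites was not called. It went from 33 to 23 of 105 sites (-9.52 points, -19.6 to 0.772), while SYCP3 fell by 38.1 points (-38.1, -47.8 to -27.0). At the 1061 shared sites away from CTCF peaks and gene ends the differences were -27.6 points (-30.5 to -24.7) and -43.7 points (-46.8 to -40.5). The difference between these settings was not tested.

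Read from the axis side, 28.6% of wild-type HORMAD1 peaks and 40.8% of wild-type SYCP3 peaks overlapped a MEI4 peak, against 3.52% and 2.75% in Iho1KO. For Spo11KO the values were 22.3% and 23.6%, and 22.2% of the SYCP3 peaks of Hormad1KO overlapped a MEI4 peak. Read from the MEI4 side, Spo11KO lay between the wild type and Iho1KO, with 16.9% of its MEI4 peaks at its HORMAD1 peaks (15.7 to 18.1) and 14.7% at its SYCP3 peaks (13.6 to 15.8), which covered 5.15% and 5.75% of all hotspots. In Hormad1KO 4.78% of MEI4 peaks (4.15 to 5.50) overlapped a SYCP3 peak, beside 1.45% of all hotspots. In Iho1KO the share was 5.49% (4.69 to 6.41), beside 6.37% of all hotspots. The SYCP3 lists of Hormad1KO and Iho1KO held 823 and 5380 peaks. Their shares on the MEI4 side were close, but only that of Hormad1KO exceeded its share of all hotspots. On the axis side these knockouts were far apart.

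Wild-type axis binding went with retention of MEI4. Among wild-type MEI4 peaks at hotspots, 90.5% of those with a wild-type SYCP3 peak were found in Iho1KO and 73.4% of those without, a difference of 17.1 points (13.3 to 20.8). The difference was 13.4 points for HORMAD1 (9.43 to 16.9) and 10.4 points for IHO1 itself (6.25 to 14.2), which covered 4.14% of all hotspots. Hotspot strength moves with these peaks. Within the strongest 10% alone the differences were 9.71 points for SYCP3 (5.12 to 14.8), 6.78 for HORMAD1 (2.76 to 10.7) and 3.08 for IHO1 (-1.10 to 7.03), the last not called.

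The peaks that stayed were narrower where IHO1 had been. Over all shared sites the median log2 ratio of peak width, Iho1KO over wild type, was -0.09 (-0.13 to -0.06). It was -0.40 (-0.47 to -0.34) at the 346 hotspot sites with a wild-type IHO1 peak, whose median width was 3102 bp in the wild type and 2194 bp in Iho1KO. At the 880 sites without one it was 0.01 (-0.02 to 0.06). Sites with a wild-type HORMAD1 peak gave -0.38 (-0.43 to -0.30) and sites without gave 0.01 (-0.02 to 0.06). For SYCP3 the medians were -0.26 (-0.29 to -0.21) with and 0.07 (0.01 to 0.11) without. Wild-type peaks are also wider at axis sites, with a median of 2952 bp with a HORMAD1 peak and 1810 bp without one, and the part of this in the ratios was not tested.

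**Figure D3:**
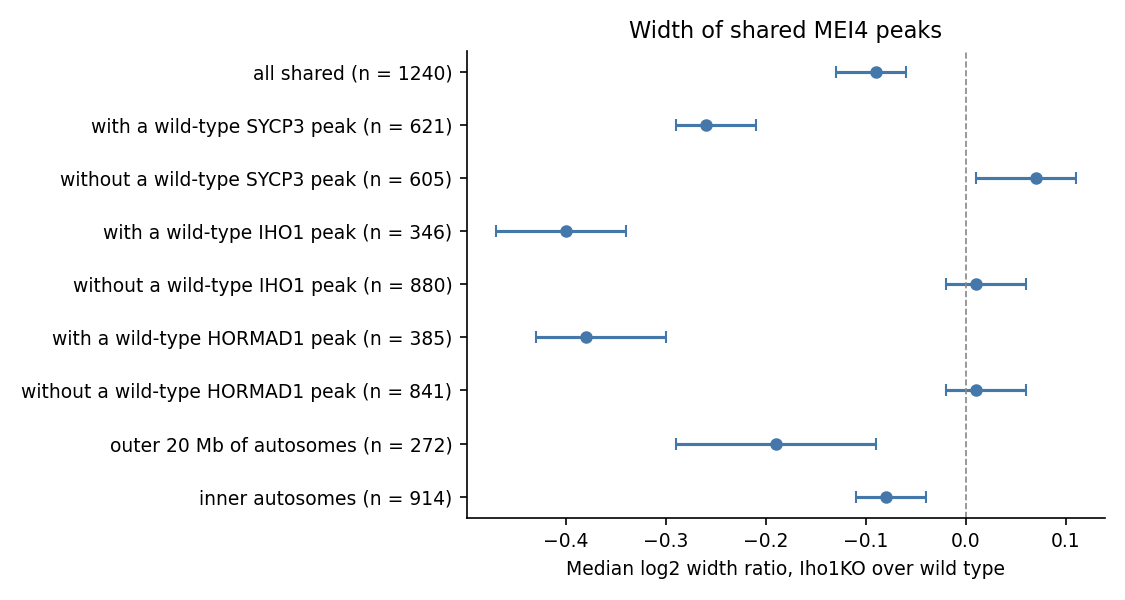
Median log2 ratio of MEI4 peak width, Iho1KO over wild type, at shared sites (x axis), for all sites and for subsets on the y axis, with order-statistic 95% intervals. Sites with a wild-type IHO1, HORMAD1 or SYCP3 peak lie left of the dashed line of equal width, at -0.40, -0.38 and -0.26.

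Extremes of the width ratio among shared sites were chosen by rule. The peak inside Arih1, a ubiquitin ligase gene (chromosome 9, hotspot value 5207), was 1086 bp in the wild type and 3777 bp in Iho1KO in width. Another, 102 kb from Wnt4, which encodes a secreted signalling protein, went from 1633 to 4753 bp (log2 ratio 1.54). Both had SYCP3 peaks in Iho1KO. The strongest narrowing was on the Y chromosome near Gm52481, from 3749 to 619 bp (-2.60), and at the end of chromosome 9 near Gm39469, from 9172 to 1743 bp (-2.40).

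MEI4 peaks were also centred more closely on the hotspot in Iho1KO. The median distance between the centre of the peak and the centre of its hotspot was 181 bp for wild-type peaks at shared sites (166 to 189) and 118 bp for the Iho1KO peaks there (110 to 126). For Iho1KO-only peaks it was also 118 bp (113 to 124). Within 250 bp of the hotspot centre lay 65.3% of the wild-type and 81.9% of the Iho1KO centres at shared sites.

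Loss of MEI4 without IHO1 differed with position along the chromosome. This contrast was chosen after the data were examined. Among autosomal wild-type MEI4 peaks at hotspots, 62.4% of those within 20 Mb of either chromosome end were found in Iho1KO (272 of 436), against 89.1% of those further in (914 of 1026). The difference was -26.7 points (Newcombe interval -31.7 to -21.8). The outer part held 164 of the 276 wild-type-only sites (59.4%) but 22.9% of the shared and 18.4% of the Iho1KO-only sites, while 32.6% of all autosomal hotspots lay there.

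Both ends showed it. At the start of the coordinates, which is the centromeric end of mouse chromosomes, 52.3% of the outer peaks were found (-36.8 points against the inner part, -44.0 to -29.6). At the distal end 70.7% were found (-18.4 points, -24.7 to -12.6). By distance to the nearer end, the share found was 68.5% within 5 Mb (59.3 to 76.5), 50.9% from 5 to 10 Mb (41.6 to 60.2), 65.0% from 10 to 20 Mb (58.5 to 71.0) and 92.6% from 40 to 60 Mb (89.6 to 94.8).

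Spo11KO and Hormad1KO lost fewer peaks than Iho1KO in both the outer 20 Mb and the inner part. In Spo11KO 87.6% of outer and 97.1% of inner peaks were found, and in Hormad1KO 87.2% and 95.9%. The contrasts below are in points, which depend on the level of the shares, and relative losses were not compared. The outer minus inner difference was -9.46 points in Spo11KO (-13.0 to -6.44) and -8.75 in Hormad1KO (-12.4 to -5.61). The difference of Iho1KO from Spo11KO was -17.2 points (-22.8 to -11.7) and that from Hormad1KO -17.9 (-22.8 to -13.1), over the same wild-type peaks. With knockout lists of equal length these became -10.9 (-17.0 to -4.90) and -9.48 (-14.4 to -4.60). Within the outermost 5 Mb, Iho1KO and Spo11KO were alike in value, at 68.5% and 67.6% (58.3 to 75.7), and with an outer part of 10 Mb the difference from Spo11KO was -7.95 (-16.0 to 0.0887), which was not called.

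**Figure D4:**
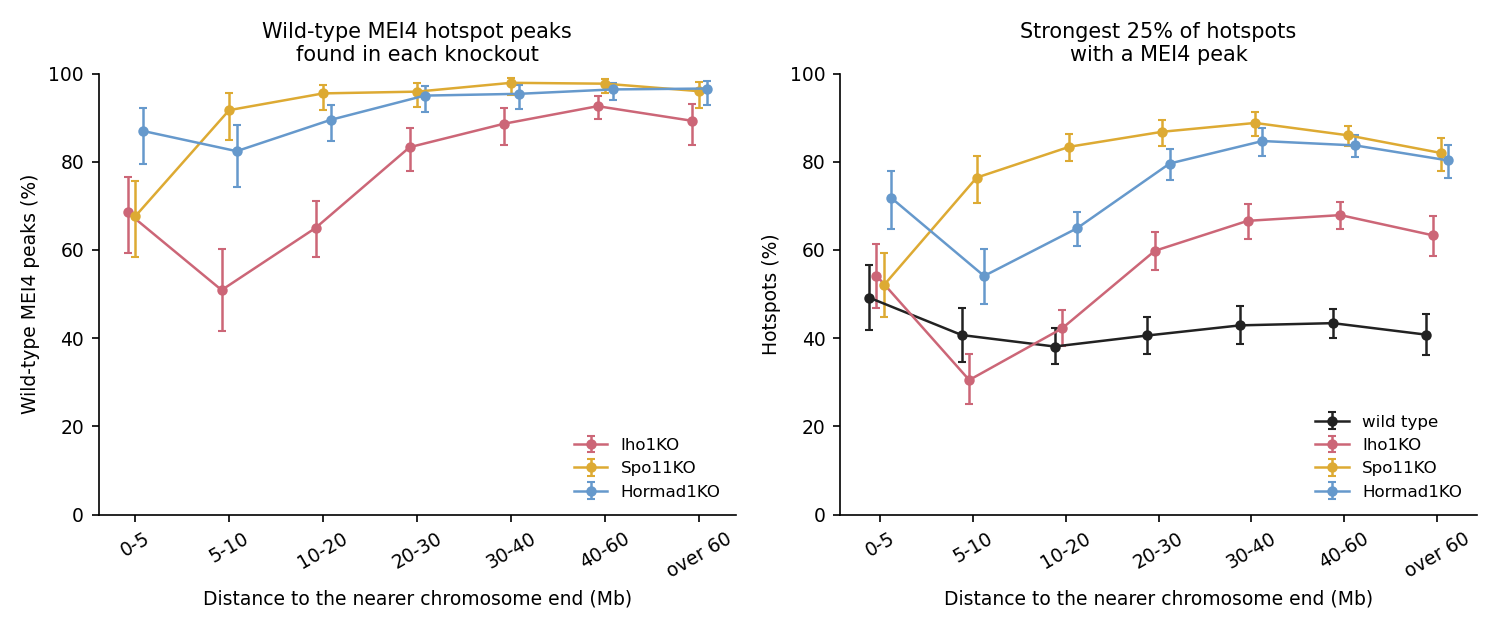
Left, share of autosomal wild-type MEI4 hotspot peaks found in each knockout (y axis, %) by distance to the nearer chromosome end (x axis, Mb); right, share of the strongest 25% of autosomal hotspots with a MEI4 peak in each genotype, both with Wilson 95% intervals. Iho1KO drops to 50.9% at 5 to 10 Mb on the left, while the wild type on the right stays between 38.1% and 49.2%.

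The hotspots themselves gave the same picture with less contrast to Hormad1KO. Of the strongest 25% of autosomal hotspots, the wild type had MEI4 at 40.8% of outer and 42.2% of inner ones (-1.41 points, -5.06 to 2.28). Iho1KO had 41.5% and 65.0% (-23.5, -27.1 to -19.8), Spo11KO 76.0% and 86.1% (-10.1, -13.2 to -7.13) and Hormad1KO 63.4% and 82.4% (-19.0, -22.4 to -15.6). Set against the wild type, the contrast in Iho1KO differed by -22.1 points (-26.1 to -18.1). Against Spo11KO it differed by -13.4 points (-17.4 to -9.45) and against Hormad1KO by -4.51 points (-7.79 to -1.22). Both of these lists are longer than that of Iho1KO. The contrasts over hotspots were not recomputed at equal list length or on a relative scale. In Iho1KO the share of occupied hotspots was thus 22.8 points above the wild type in the inner part and 0.711 points above it in the outer part. DMC1 in Hormad1KO was called at 74.1% of outer and 92.8% of inner hotspots (-18.7, -21.7 to -15.8).

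Hotspots with a wild-type MEI4 peak were weaker near the ends, with a median DMC1 value of 922 within 5 Mb of an end and 1748 at 40 to 60 Mb. Within 10 classes of DMC1 value, combined with Mantel-Haenszel weights, the Iho1KO difference was -23.9 points (-28.9 to -19.0), and in the strongest 10% alone -18.2 (-24.6 to -12.5). Gene density, counted as protein-coding genes within 500 kb, also varies along chromosomes. The outer minus inner difference was below 0 in each of 4 classes of gene density, from -36.0 points (-45.8 to -25.9) to -15.0 (-23.9 to -7.27, in the densest).

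By autosome, the share found was lower in the outer part on 18 of 19 autosomes, chromosome 16 being the exception (18 of 21 outer and 33 of 42 inner peaks). On chromosome 15 only 7 of 24 outer peaks were found (29.2%), against 32 of 38 inner ones. Chromosomes 7 and 12 showed almost no contrast, at 87.0% against 87.5% and 90.5% against 92.2%. Outer shares were also lower on 17 of 19 autosomes in Spo11KO and 16 of 19 in Hormad1KO.

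**Figure D5:**
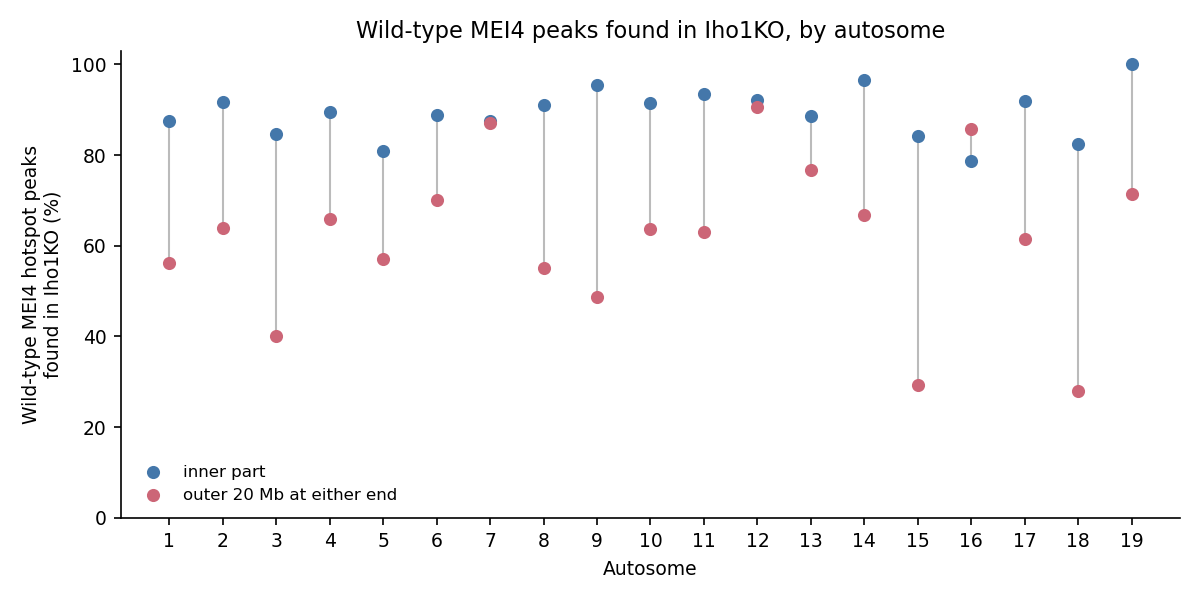
Share of wild-type MEI4 hotspot peaks found in Iho1KO (y axis, %) on each autosome (x axis), for peaks within 20 Mb of either end (red) and for the inner part (blue), joined by a line. Red lies below blue on 18 of 19 autosomes.

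Axis peaks and position both went with retention. In the outer part, 76.3% of wild-type MEI4 peaks with a SYCP3 peak and 53.2% of those without were found in Iho1KO (difference 23.1 points, 14.0 to 31.4). In the inner part the shares were 95.3% and 83.3% (12.0 points, 8.35 to 15.8). Wild-type SYCP3 peaks covered 26.9% of the strongest outer hotspots and 30.3% of the inner ones (-3.37, -6.66 to 0.0266). HORMAD1 (14.4% and 18.4%) and IHO1 (12.5% and 16.3%) were slightly rarer in the outer part, with differences of -3.92 points (-6.55 to -1.14) and -3.78 points (-6.25 to -1.13).

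A separate group of lost sites did not lie at hotspots. Of the 42 wild-type-only sites away from hotspots, 17 were on chromosome 9, 6 on chromosome 4 and 6 on the X chromosome. In the mouse, the distal ends of chromosomes 4, 9 and 13 and the pseudoautosomal region of X and Y are known for minisatellite arrays at which MEI4 and IHO1 gather. Of the 42 sites, 26 overlapped a wild-type IHO1 peak (61.9%) and 15 a Prdm9KO MEI4 peak (35.7%), which covered 0.0579% of hotspots. The 14 shared sites away from hotspots had shares of 57.1% and 35.7%.

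The clearest case was the end of chromosome 9. From 123923109 to 124495095 (mm10), 572 kb that include the chemokine receptor genes Ccr3 and Ccr2, 19 wild-type MEI4 peaks covered 245 kb. The widest was 56010 bp long, over Ccr2, and another of 17219 bp lay over Ccr3. Iho1KO had 2 MEI4 peaks there, covering 3.23 kb, and 1 of the 19 wild-type peaks was shared. In Prdm9KO 14 of the 19 were found, in Hormad1KO 9 and in Spo11KO 5. Axis peaks were still called here in Iho1KO: of the 19 sites, 14 had a HORMAD1 peak in each genotype, and SYCP3 had 18 in the wild type and 19 in Iho1KO. The median width of these sites was 6339 bp, so an overlap of 1 bp is easily met. The length covered by axis peaks is not given here.

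In the last 2 Mb of the 4 chromosomes with such arrays, MEI4 peaks covered less in Iho1KO than in the wild type, by very different amounts, and the other knockouts did not keep 1 order. On chromosome 9 MEI4 peaks covered 252 kb in the wild type, 11.5 kb in Iho1KO, 59.7 kb in Spo11KO, 95.7 kb in Hormad1KO and 286 kb in Prdm9KO. On chromosome 4 the covered lengths were 82.6 kb in the wild type, 7.22 kb in Iho1KO, 21.6 kb in Hormad1KO and 6.56 kb in Prdm9KO, with no peak in Spo11KO. On the X chromosome they were 66.1, 17.0, 6.43, 20.1 and 15.7 kb in the order wild type, Iho1KO, Spo11KO, Hormad1KO and Prdm9KO. On chromosome 13 the wild type had 8.50 kb and Iho1KO 5.18 kb, from 5 and 3 peaks. The lists give no signal height, so these lengths show the extent of called peaks, not the amount of MEI4, and how reads were placed in repeats was not tested.

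The pseudoautosomal ends kept part of their MEI4. A peak 12.6 kb from Mid1, the microtubule-associated ubiquitin ligase gene that spans the pseudoautosomal boundary in C57BL/6, was shared (5165 bp) and present in all 5 genotypes. A wild-type peak of 22546 bp inside Mid1 was found in none of the other 4. Near the end of the Y chromosome, a peak of 5220 bp was shared, and an Iho1KO-only peak of 6322 bp lay beside it. Over the whole X chromosome the classes had like shares: 42 of 1240 shared, 14 of 326 wild-type-only and 43 of 1437 Iho1KO-only sites. Differences from shared sites were 0.907 points (-1.17 to 3.82) and -0.395 points (-1.78 to 0.942), with neither called.

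Wild-type-only sites were more often in the last 5 Mb of a chromosome than shared sites, with 49 of 326 against 66 of 1240 (difference 9.71 points, 5.97 to 14.1). Without chromosome 9 the difference was 4.47 points (1.22 to 8.60).

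The other genotypes separate the classes further. MEI4 peaks covered 27.3% of all hotspots in Spo11KO and 26.9% in Hormad1KO. The class differences below were not adjusted for hotspot strength, which differs between the classes. At hotspots, 95.5% of shared sites had a MEI4 peak in Spo11KO and 97.6% in Hormad1KO. Wild-type-only sites had 85.9% in Spo11KO (-9.60 points against shared sites, -14.2 to -5.80) and 75.7% in Hormad1KO (-21.8, -27.2 to -17.1). Iho1KO-only sites had 76.0% in Spo11KO (-19.5, -22.0 to -16.9) and 90.6% in Hormad1KO (-6.93, -8.74 to -5.18). MEI4 was called in Spo11KO, Hormad1KO or both at 99.7% of shared, 95.1% of wild-type-only and 95.2% of Iho1KO-only hotspot sites, so the last 2 classes did not stand apart in this count. The matching share of all hotspots is not given here.

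DMC1 in Hormad1KO had the same order of classes as MEI4 in Hormad1KO, which is not that of MEI4 in Spo11KO. It covered 34.5% of all wild-type hotspots, and was called at 98.3% of shared sites, at 93.9% of Iho1KO-only sites (-4.42 points, -5.93 to -2.97) and at 71.8% of wild-type-only sites (-26.5, -32.0 to -21.5). DMC1 in Iho1KO was not analysed here. CTCF peaks were slightly more frequent at wild-type-only than at shared hotspot sites, with 12.7% against 8.16% (4.52 points, 0.753 to 9.11). Ends of protein-coding genes were within 1 kb of 9.51% and 7.01% of these sites, which differed by 2.49 points (-0.796 to 6.67), and this interval includes 0. For Iho1KO-only hotspot sites the share was 6.06%. The share of all hotspots near gene ends is not given here, so no class can be set against it.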

How the data were processed

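MEI4, IHO1, HORMAD1, SYCP3, CTCF and DMC1 were mapped by ChIP-seq. Per the submitters' processing notes, Bowtie2, MACS2 and mm10 were used; thresholds are not given in the sources used here. The series' design text says that signal from each protein's own knockout had been subtracted by the authors. The deposited MEI4, IHO1, HORMAD1 and SYCP3 lists give a start and end per peak and no height; whether replicates were pooled is not stated, and samples of a group may be technical. The deposited DMC1 signal was used only within the wild-type list, to rank hotspots and to give values, medians and quartiles. The CTCF score was not used.

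Intervals were compared by position (Python 3.11.15, pandas 2.3.3, scipy 1.17.1), with an overlap of at least 1 bp, and coordinates are printed counted from 1. A peak took the highest DMC1 value among the hotspots it overlapped. Shares have Wilson intervals, differences of shares Newcombe intervals (paired over the same peaks where stated), medians order-statistic intervals, and differences between 2 outer minus inner contrasts a normal interval. A difference was called where its 95% interval excluded 0, with no p-value, since peaks are not replicates. Overlap calling and the Wilson, Newcombe, median and Mantel-Haenszel intervals were tested on simulated data, but the normal interval was not. Distance to a chromosome end was measured from the outermost gene or peak. RefSeq genes (GRCm38.p6) gave names; the table has no strand, so gene ends widened by 1 kb replaced start sites.

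Named sites were, per class, the 3 with the highest DMC1 value and the 3 widest away from hotspots; the 2 largest and 2 smallest width ratios; and the 2 strongest Iho1KO-only sites with both axis proteins in Iho1KO, all without chromosome 18, as were the sequences. The end regions of chromosomes 4, 9, 13 and X and the other sites were chosen with values seen. The members, lists and contrasts were chosen with earlier results of these data known.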

Additional observations from a re-analysis of the deposited data

Results flagged for a closer look

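The change in the share of wild-type MEI4 hotspot peaks from the inner to the outer 20 Mb of autosomes differed between knockouts when the difference itself was tested by its interval. In points it was more negative in Iho1KO, with a difference of -17.2 points from Spo11KO and of -17.9 points from Hormad1KO. With knockout lists of equal length these were -10.9 and -9.48 points. With an outer region of 10 Mb they were -7.95 points, which was not called, and -15.0 points. Over the strongest 25% of autosomal hotspots, in place of wild-type MEI4 peaks, they were -13.4 and -4.51 points, without a recomputation at equal list length. All these values are in points, and relative losses were not compared. The contrast was chosen after the data were examined, each genotype has 1 list, and the cause was not tested.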

How the results depend on the processing

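The planned results and the outer minus inner contrasts over wild-type MEI4 peaks were recomputed. The settings were a stricter overlap (50% of the shorter peak), fixed windows of 1 kb, autosomes only, the wider 50% of each MEI4 list, lists of equal length, stronger hotspots or subsets of sites, as each applied. Other differences, such as those at CTCF peaks, by gene density or over the strongest 25% of hotspots, were not recomputed. Of 112 planned recomputations 99 counted as the same, and of 53 added after seeing the data 49 did. For a difference this means the same direction and call, and for a share or median DMC1 value a value inside the main interval. For the width ratio it means a shift below the standard deviation of the ratios. With the wider 50% of each list, 67.4% of wild-type peaks were found in Iho1KO and 39.4% of Iho1KO peaks in the wild type, and the DMC1 medians became 2579 (shared), 1502 (wild-type only) and 995 (Iho1KO only). With the widest peaks of the longer list, as many as the shorter holds, both shares were 56.7%, and the medians were 1904, 1113 and 708, in the same order. With its first rows in deposited order (the quantity that orders them is not named; early rows hold wider peaks) both shares were 60.5%. These settings keep fewer peaks. At equal length the deficit of Iho1KO against Spo11KO was -2.17 points and no longer called, and that against Hormad1KO turned to 0.383. The X share of wild-type-only minus shared sites turned to -0.754 with the stronger 50% of hotspots; it was not called in either case. The outer minus inner difference in Hormad1KO was -0.524 and not called in the strongest 10% of hotspots, and the difference between Iho1KO and Spo11KO was -7.95 with an outer region of 10 Mb. The cause of these changes was not tested. Leaving out 1 autosome at a time moved the outer minus inner difference in Iho1KO between -28.3 and -24.8.

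No paired analysis was possible because each group has 1 peak list and the replicate numbers of the labels belong to no list of their own. Unknown depth and thresholds limit every comparison of lists: no list gives the height of a peak, and the values just under each threshold are not known here.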

Other observations

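At the 10908 hotspots with MEI4 in neither genotype, whose median DMC1 value was 90.5, wild-type SYCP3 peaks lay at 107 (0.981%) and Iho1KO SYCP3 peaks at 730 (6.69%), while HORMAD1 lay at 83 and 79. Over all hotspots the SYCP3 shares were 7.47% and 6.37%, so the Iho1KO share here was near that of all hotspots, and the SYCP3 lists held 1911 and 5380 peaks. In the strongest 10% of hotspots with MEI4 in neither genotype (n = 180) SYCP3 lay at 57 in the wild type and 3 in Iho1KO.

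Of the strongest 10% of hotspots, those with MEI4 in Iho1KO only had a wild-type HORMAD1 peak in 42.3% and a SYCP3 peak in 61.3% of cases, beside 47.1% and 70.9% of those with MEI4 in both genotypes. Those with MEI4 in the wild type only had 29.2% and 52.1%, and these differences were not tested. The mitochondrial chromosome had 1 MEI4 peak in the wild type and 3 in Iho1KO.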
